A study of Mus musculus with 2 samples.

Results

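Natural killer (NK) cells and group 1 innate lymphoid cells (ILC1) of neonatal mouse skin were defined by the genes found in each cell. A cell barcode with at least 200 genes and under 10% mitochondrial counts was taken as a member when it held at least 1 unique molecule count (UMI) of Il2rb and at least 2 UMIs of Ncr1, Klrb1c, Eomes, Gzma and Gzmc together. It also had to hold no UMI of Cd3d, Cd3g or Trdv4, fewer than 3 UMIs of the cycling genes Mki67 and Top2a, and under 1% of its UMIs from the MHC class II genes Cd74, H2-Aa, H2-Ab1 and H2-Eb1. This selected 52 of 27589 barcodes, 36 of 19542 in the isotype control library and 16 of 8047 in the anti-Gr-1 library.

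The study concerns the part of myeloid cells and commensals in type 17 inflammation of neonatal skin. Wild-type C57BL/6 mice received either an anti-Gr-1 antibody or its isotype control every other day from postnatal day 4 to day 14, and skin was taken on day 15. Anti-Gr-1 binds Ly6G and Ly6C, and the labels give it as the means of removing monocytes. The skin of 4 to 7 mice was pooled for each treatment, digested with collagenase and sorted for live CD45+ cells before droplet single-cell RNA sequencing. Each treatment is therefore 1 library of pooled animals. No difference between the treatments could be tested, and every interval given here is a 95% interval of counting error, which leaves out the spread between cells, mice and pools.

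NK cells and ILC1 are lymphocytes without a rearranged antigen receptor that answer IL-12, IL-15 and IL-18 with interferon-gamma and that can kill target cells with perforin and granzymes. Both carry CD122, the interleukin 2 and 15 receptor beta chain encoded by Il2rb, and depend on the transcription factor T-bet. NK cells circulate and usually express Eomes and the integrin CD49b (Itga2), while ILC1 stay in tissues and are known by CD49a (Itga1), Cxcr6 and Il7r. In mouse skin they sit beside dendritic epidermal T cells, gamma delta T cells whose receptor uses Trdv4 and which share several killer cell genes with them, among them Gzmc and Xcl1.

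The members were few but well covered. Isotype control members held 183974 UMIs in all, with a median of 5601 per cell (808 to 8208), and anti-Gr-1 members held 157593, with a median of 8106 (4303 to 36856). The medians over all barcodes of these libraries that passed the filters on genes and mitochondrial counts were 4884 and 8139 UMIs. The deepest anti-Gr-1 member, with 36856 UMIs, held 23.4% of that library's member UMIs and stood apart: it carried RNA of both sexes and endothelial genes, and results that rest on it are given with and without it. Of the 61 barcode sequences present in both libraries, 1 belonged to an anti-Gr-1 member and none to an isotype control member. By Xist and Y-linked RNA, 16 female and 12 male cells were seen among the isotype control members and 4 and 7 among the anti-Gr-1 members.

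The promoters of 2 granzymes and of Ncr1 are shown because Gzma and Gzmc divided the members and because Ncr1, the gene of the NK receptor NKp46, was rare in the other cell groups compared. Gzma lies at chr13:113093825-113100981 and Gzmc at chr14:56231441-56234656, both on the minus strand of GRCm38, and Ncr1 at chr7:4337724-4345164 on the plus strand. The windows run from 250 bases before to 50 after the start in the RefSeq annotation of GRCm38.p6, at chr13:113100932-113101231 for Gzma, chr14:56234608-56234907 for Gzmc and, for the first listed Ncr1 start, chr7:4337465-4337764. They are written 5′ to 3′ on the gene's strand, with capitals for the Runx motif TGTGGT or its reverse complement ACCACA.
Gzma: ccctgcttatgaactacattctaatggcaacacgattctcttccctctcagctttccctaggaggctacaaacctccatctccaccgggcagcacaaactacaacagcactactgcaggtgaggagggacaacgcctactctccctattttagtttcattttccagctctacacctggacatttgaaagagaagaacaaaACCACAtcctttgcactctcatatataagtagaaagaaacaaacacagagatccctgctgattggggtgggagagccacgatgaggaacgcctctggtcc
Gzmc: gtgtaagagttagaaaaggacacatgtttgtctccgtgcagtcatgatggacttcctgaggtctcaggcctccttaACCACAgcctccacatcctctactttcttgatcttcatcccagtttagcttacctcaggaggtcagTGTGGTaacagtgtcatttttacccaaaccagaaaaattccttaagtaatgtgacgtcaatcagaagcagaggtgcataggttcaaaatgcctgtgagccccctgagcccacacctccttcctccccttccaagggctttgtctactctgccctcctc
Ncr1: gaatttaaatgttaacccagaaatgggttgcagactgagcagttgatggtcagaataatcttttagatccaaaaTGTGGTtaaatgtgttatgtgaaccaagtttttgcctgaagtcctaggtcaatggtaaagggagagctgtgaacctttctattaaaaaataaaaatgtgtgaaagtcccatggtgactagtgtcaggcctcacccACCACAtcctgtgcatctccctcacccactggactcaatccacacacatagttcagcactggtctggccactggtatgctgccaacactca
The Gzma window held 1 match, and the Gzmc and Ncr1 windows held 2 each. On either strand the motif was found in 16.7% of 32544 promoter windows of that length. The T-box motif GGTGTGA, in 3.95% of windows, and the AP-1 motif TGANTCA, in 7.79%, were searched in the same way and had no match in these 3 windows. Windows of Eomes, Klre1 and Xcl1 were searched as well and are not shown. Eomes held 0 matches to the 3 motifs. Of the Klre1 windows, 1 held a Runx match and the other held 0. Xcl1 held a T-box match and a Runx match. A match describes the letters only.

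The genes of the rule describe the members and are no finding about them. Levels are given as CPM, the UMIs of a gene scaled to a common total over the summed UMIs of the cells compared. Il2rb stood at 1228 CPM in the isotype control members and 844 CPM in the anti-Gr-1 members. Ncr1 was found in 20 of 36 and 7 of 16 members, Klrb1c, the gene of NK1.1, in 24 and 10, and Eomes in 8 and 2. Gzma was found in 15 and 3 members and Gzmc in 14 and 7. At the edge of the rule, 5 isotype control members and 1 anti-Gr-1 member held a single Il2rb UMI, and as many held exactly 2 UMIs of the 5 lineage genes. Just outside it, 21 and 6 further cells failed only by holding 1 UMI of these genes.

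Genes outside the rule bore on the label. Tyrobp, the DAP12 adaptor of activating NK receptors, was found in 46 of 52 members (88.5%, 76.6 to 95.7) and in 17.8% of other T cells, which held at least 2 UMIs of Cd3d and Cd3g and no Trdv4 and met the same limits on cycling and MHC class II genes. Tyrobp was also found in 88.0% of MHC class II-rich cells (at least 1% of UMIs from the class II genes and no CD3), so it separates the members from T cells and not from myeloid cells. Nkg7 (90.4%), Ctsw (94.2%), Klrk1 (86.5%), the gene of NKG2D, and Klrd1 (76.9%), the gene of CD94, were in most members, against 12.8, 13.2, 30.3 and 25.5% of MHC class II-rich cells. The median depth was 6104 UMIs in the members and 10060 in the MHC class II-rich cells, so the lower shares there stood at a higher depth. Nkg7 and Ctsw were also frequent in Trdv4-positive T cells, in 69.25 and 73.96% of cells. Their levels were higher in those T cells, at 1415 and 1236 CPM against 1022 and 899 CPM in the members. A high level of Nkg7 or Ctsw therefore did not single out the members. Ifng, the gene of interferon-gamma and the given marker that the rule did not use, was found in 17 of 36 members of the isotype control library and in 11 of 16 of the other. Its share over both libraries was 53.8% (39.5 to 67.8), against 5.19% of other T cells, 1.56% of Trdv4-positive T cells and 0.488% of MHC class II-rich cells.

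**Figure D1:**
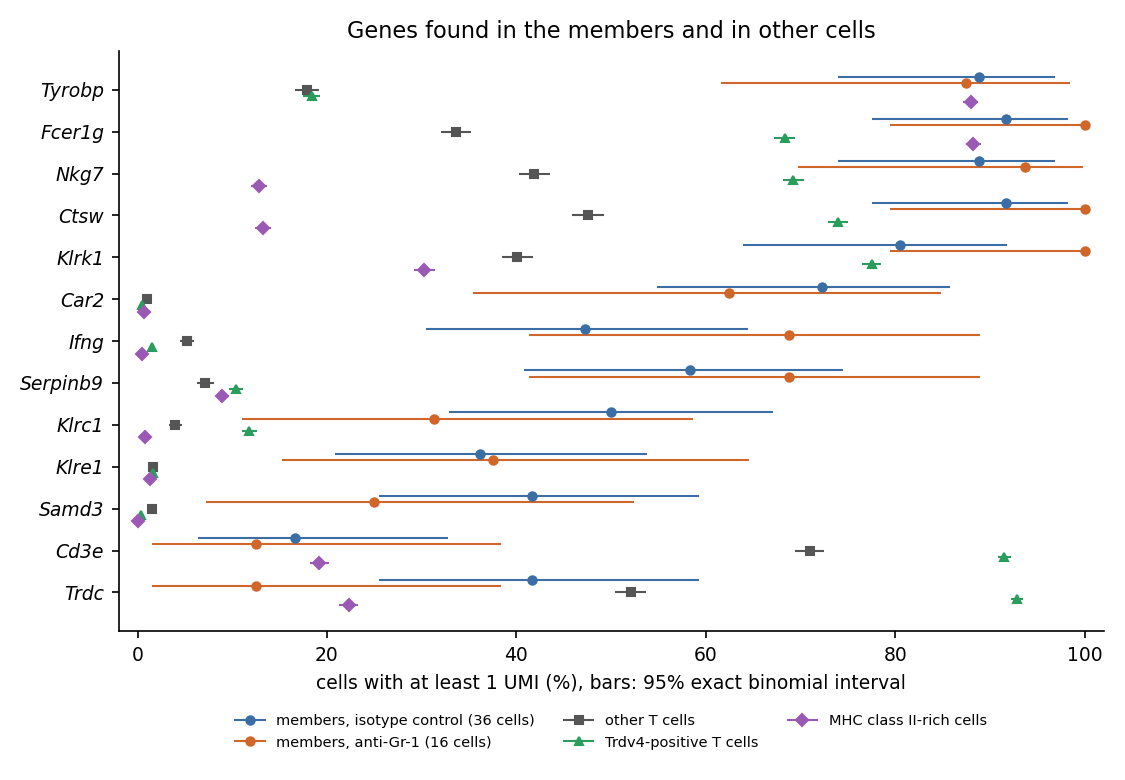
Share of cells with at least 1 UMI of 13 genes (x axis, percent) in the members of each library, in other T cells, in Trdv4-positive T cells and in MHC class II-rich cells, with exact binomial intervals as bars. Car2 and Ifng were in 69.2 and 53.8% of all members and in at most 5.19% of the 3 other cell groups, and Cd3e, at 15.4%, was under the 19.2% of the MHC class II-rich cells.

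T cell genes were not absent: Cd3e was low, but Trbc1 was no rarer than in T cells. Cd3e, a CD3 subunit that the rule left free, had 8 UMIs in 8 of 52 members, 23.4 CPM, which is the level of the MHC class II-rich cells (23.9 CPM) and far under other T cells (608 CPM). Trac, the T cell receptor alpha constant gene, was in 3 and 1 members and Cd8a in 1 and 0. Some members held more T cell genes. An isotype control member had 26 Ctla4, 7 Icos, 13 Ikzf2, 6 Trbc1, 1 Trac and 1 Cd4 UMIs, with 1 of Tyrobp. Another had 3 Ctla4, 11 Ikzf2, 4 Trbc1 and 1 Cd3e UMIs and no Tyrobp. The member with Cd8a held 2 UMIs of it, 3 of Trbc2 and 2 of Trdc, and no Tyrobp. With 12 Gzma UMIs of 1091 in all, it counts among the Gzma cells described below. An isotype control member of 809 UMIs held 3 Gzmc, 3 Trdc and 1 Cd3e UMIs and no Tyrobp, and counts among the Gzmc cells. Transcripts of the beta chain constant genes were common: Trbc1 was in 76.9% and Trbc2 in 50% of members, against 15.4 and 13.2% of MHC class II-rich cells. Trdc, the delta chain constant gene, was in 15 of 36 isotype control members at 109 CPM and in 2 of 16 anti-Gr-1 members at 12.7 CPM. The level in Trdv4-positive T cells was 2411 CPM. Only 1 isotype control and 2 anti-Gr-1 members held no UMI of Cd3e, Trac, Trbc1, Trbc2, Tcrg-C1 and Trdc at once.

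A T cell whose CD3 RNA was not sampled could pass the rule. Among Trdv4-positive cells that met the rest of the rule, 9 of 802 in the isotype control library (1.12%, 0.514 to 2.12) and 9 of 528 in the anti-Gr-1 library (1.70%, 0.782 to 3.21) held no Cd3d or Cd3g. At that share, 1.68 and 1.14 T cells without CD3 counts would be expected beside the 148 and 66 cells that held CD3, lacked Trdv4 and met the rest of the rule. Cd3e stood at 2546 CPM in Trdv4-positive T cells and 608 CPM in other T cells. The share without CD3 need not be the same in both, so the expected counts are no upper limit. The 18 Trdv4-positive cells without Cd3d or Cd3g carried genes of the members. Among these cells 94.4% held Tyrobp at 1494 CPM, 61.1% held Car2 and 50% held Ifng, while 16.7% held Cd3e. The 29 cells left out for a single CD3 UMI, 23 and 6 by library, held Tyrobp in 75.9%, Car2 in 44.8% and Ncr1 in 69.0%. Tyrobp, Car2, Ncr1 and Ifng were thus frequent on both sides of these limits.

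The genes most above other T cells in the members included receptors, granule inhibitors and Car2, among genes with at least 50 UMIs over the members and those T cells together. The comparison uses CPM over the summed UMIs of both libraries with 5 CPM added, against all cells with at least 2 CD3 UMIs and no Trdv4. The members were chosen by their own genes, so it is a description. Car2, carbonic anhydrase 2, was 5.61 log2 units higher in the members, at 674 CPM in 26 of 36 isotype control members and 260 CPM in 10 of 16 anti-Gr-1 members. It was found in 1.04% of other T cells, 0.427% of Trdv4-positive T cells, 0.521% of group 2 innate lymphoid cells (ILC2, cells with Il1rl1 and Gata3 and no CD3) and 0.692% of MHC class II-rich cells. Ncr1, a gene of the rule, was in 51.9% of members and 0.705% of other T cells. Fabp4, Plvap and Ackr1 also ranked among the first 20 by this measure, but 99.6, 100 and 100% of their UMIs came from the deepest anti-Gr-1 cell.

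Receptors of the NK gene complex made up much of the rest. Klri2 was 3.82 and Klre1 3.80 log2 units above other T cells, and these 2 lectin-like receptors were found in 28.9 and 36.5% of members. Klrc1 (3.61) and Klrc2 (3.40) encode NKG2A and NKG2C, the CD94 partners that read the MHC class Ib molecule Qa-1. Klrb1f (3.13) and Cd160 (3.07) were in 65.4 and 48.1% of members but also in 39.1 and 23.0% of Trdv4-positive T cells. Serpinb9 (3.64) and Serpinb6b (3.27), protease inhibitors of killer lymphocytes, were each in 61.5% of members. The chemokine genes Xcl1 (4.42) and Ccl5 (3.57), the interferon-gamma gene Ifng (3.67), Samd3 (3.5), Serpina3g (3.35), Styk1 (3.11), Gimap4 (3.10) and Nrgn (3.61) completed the first 20. Most of the 1092 Xcl1 UMIs of the members lay in 1 anti-Gr-1 cell, described below. In the isotype control library alone, Xcl1 stood at 1777 CPM in the members and 211 CPM in other T cells. Xcl1 was in 86.5% of members over both libraries but also in 55.0% of Trdv4-positive T cells.

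The Ly49 receptors, which in C57BL/6 mice read classical MHC class I and are acquired as NK cells mature, were scarce. Over 11 Klra genes, 24 UMIs lay in 4 of 36 isotype control members (3.11 to 26.1% of cells) and 7 UMIs in 2 of 16 anti-Gr-1 members (1.55 to 38.3%). Other genes of mature NK cells were as rare: Klrg1 had 1 UMI in each library, and S1pr5 had 0 and 2. Zfp683, the gene of Hobit, a factor of some tissue ILC1, had 0 and 1. Itga1 was found in 21 of 52 members (40.4%) and Itga2 in 13 (25%), against 5.92 and 6.93% of other T cells.

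Gzma and Gzmc divided the members. Gzma encodes a tryptase that enters target cells through perforin, and Gzmc a granzyme of the cluster on chromosome 14 that also holds Gzmb. With at least 3 UMIs asked of a granzyme, 13 members were Gzma cells (10 and 3 by library), 16 were Gzmc cells (10 and 6), and 0 were both. Gzma cells held 3 to 68 Gzma UMIs with a median of 23, and Gzmc cells held 3 to 371 Gzmc UMIs with a median of 7.5. Together these cells held 98.2% of all Gzma and 98.97% of all Gzmc UMIs of the members. At 1 UMI, 3 of 52 cells held both, with 1 UMI of the lesser granzyme in each. The limit of 3 was set after the values were seen, and since the rule accepts a cell on either gene, the granzymes helped to choose the cells they divide. Of the 23 cells under the limit for both, 20 held Ncr1, Klrb1c or Eomes, and the other 3 entered with 2 UMIs of a granzyme.

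**Figure D2:**
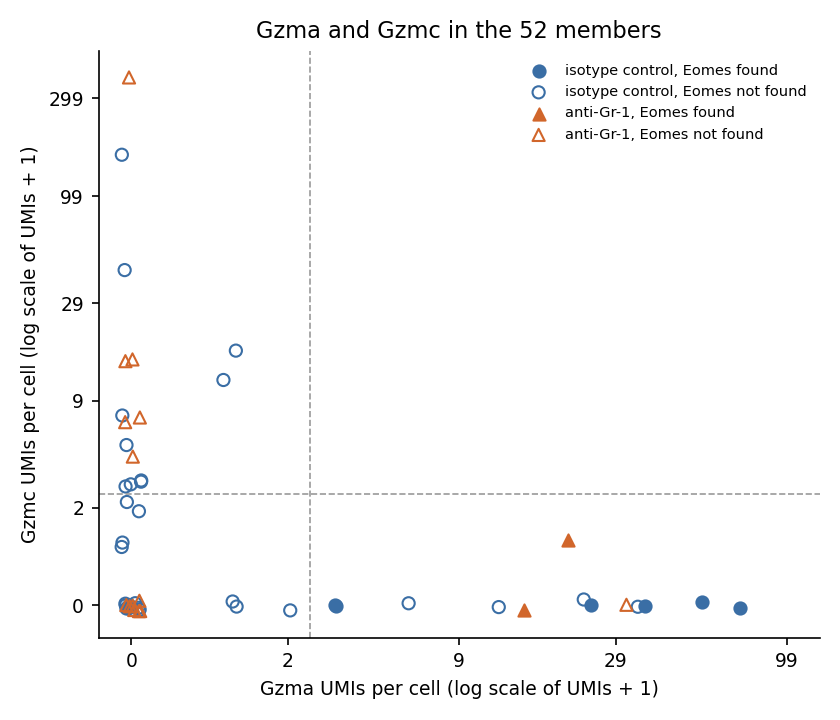
Gzma UMIs (x axis) against Gzmc UMIs (y axis) in each of the 52 members, on a log scale of UMIs + 1 with points shifted slightly so that overlapping cells show; dashed lines mark the limit of 3 UMIs. The upper right field is empty, and of the 10 cells with Eomes (filled) 8 are among the 13 Gzma cells and 0 among the 16 Gzmc cells.

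Some genes known from circulating NK cells were more frequent in Gzma cells. Eomes was in 8 of 13 Gzma cells, 0 of 16 Gzmc cells and 2 of the 23 cells with neither, but Eomes is itself a gene of the rule. Among genes the rule did not use, Klre1 was in 84.6% of Gzma and 12.5% of Gzmc cells, Klrc2 in 69.2 and 18.8%, and Itga2 in 53.8 and 6.25%. Ccl5, a chemokine that NK cells store, was in 12 of 13 Gzma cells at 3419 CPM and in 4 of 16 Gzmc cells at 619 CPM. Irf8, a factor that NK cells need to mature, was in 6 and 1 cells. Gimap4 and Gimap6, GTPases of lymphocyte survival, were in 69.2 and 76.9% of Gzma cells and each in 12.5% of Gzmc cells. Prf1, the perforin gene, stood at 536 CPM in Gzma cells and 129 CPM in Gzmc cells, and the granule inhibitor Serpinb9 at 551 and 129 CPM.

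Gzmc cells more often held genes known from tissue-resident lymphocytes. Itgae, the CD103 integrin that binds E-cadherin of keratinocytes, was in 11 of 16 Gzmc cells and 1 of 13 Gzma cells. Il7r was in 81.2 and 30.8%, Cxcr6 in 56.2 and 7.69%, and Ikzf2, the gene of Helios, in 68.8 and 15.4%. Areg, the epidermal growth factor family ligand amphiregulin, was in 9 Gzmc cells at 1044 CPM and in none of the 13 Gzma cells. Jaml, an adhesion receptor for the keratinocyte ligand CXADR, was in 13 of 16 and 1 of 13. Each of these genes was more frequent in Gzmc cells in both libraries: Itgae, for example, was in 6 of 10 and 5 of 6 Gzmc cells and in 0 of 10 and 1 of 3 Gzma cells.

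Lists of known genes were counted as well, since the genes above were picked after their values were seen. The lists too were chosen with earlier results of these data known, so they are no independent check. Of 16 ILC1 genes with at least 20 UMIs, 15 were found in a larger share of Gzmc cells and 1, Itga1, in a larger share of Gzma cells, by 38.5 against 37.5%. The median difference was 32.2 percentage points. This lean was not particular to ILC1 genes. Gzmc cells also more often held 5 of 5 measured ILC2 genes and 3 of 4 dendritic epidermal T cell genes. As Gzma minus Gzmc, their medians were -31.2 and -29.1 points. Over all 2443 genes the median difference was 7.21 points toward Gzmc cells, whose median depth was 6791 UMIs against 4849. After each cell was thinned to 2000 UMIs, which left 11 and 15 cells, the median was 0.6 points toward Gzma cells over all genes and 22.1 points toward Gzmc cells over the ILC1 genes, with 13 of 16 on that side. Of 13 genes of circulating and mature NK cells, 8 were more frequent in Gzma cells and 5 in Gzmc cells, with a median of 14.9 points toward Gzma cells. That list did not divide the cells under every setting: at a limit of 1 UMI it stood at 7 to 6 with a median of 7.8 points, and in the anti-Gr-1 library alone, with 3 Gzma and 6 Gzmc cells, at 6 to 5 with a median of 0. The gene most against the name of that list was Cx3cr1, a fractalkine receptor of mature NK cells, which was in 0 of 13 Gzma cells and in 12 of 16 Gzmc cells, 6 in each library.

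**Figure D3:**
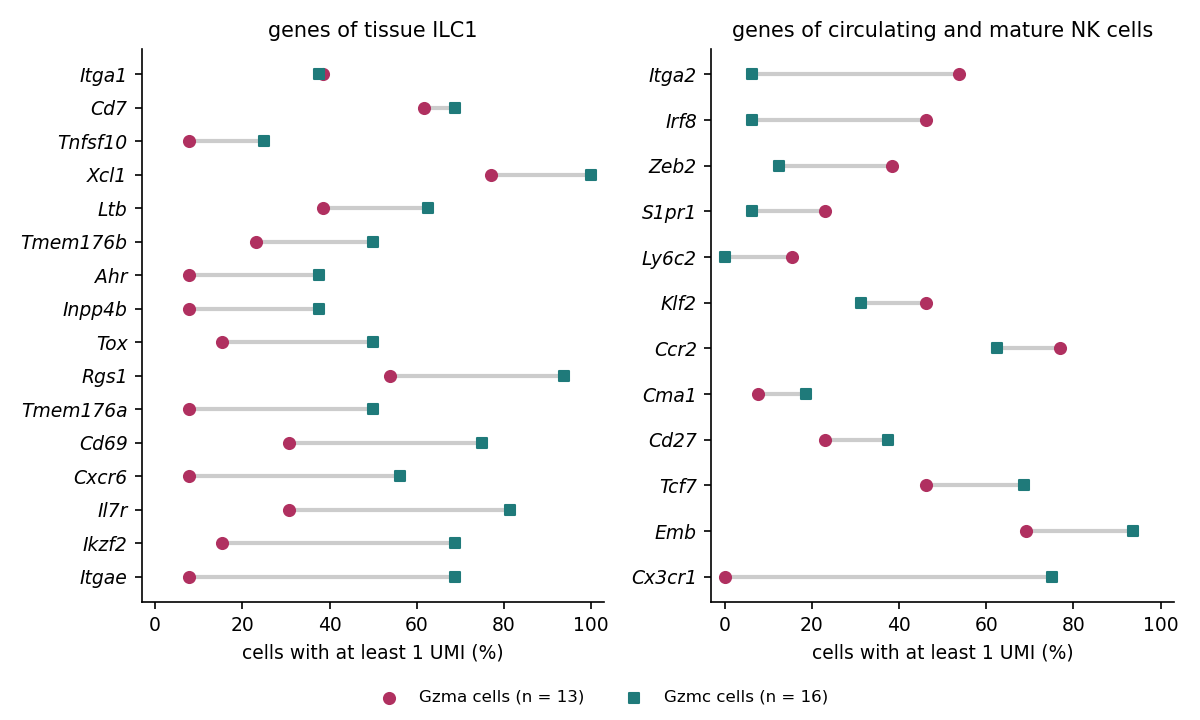
Share of cells with at least 1 UMI (x axis, percent) in the 13 Gzma cells (circles) and 16 Gzmc cells (squares) for the 16 measured genes of tissue ILC1 (left) and 12 of the 13 of circulating and mature NK cells (right). All ILC1 genes except Itga1 lie further right in Gzmc cells, and Cx3cr1 is the widest gap on the right, from 0 to 75%.

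Several genes of the Gzmc cells are also those of dendritic epidermal T cells, so these cells were set beside the 883 Trdv4-positive T cells that held at least 3 Gzmc UMIs under the same limits, at median depths of 6791 and 6122 UMIs. Those T cells were chosen by Trdv4 and Gzmc, and not all need be dendritic epidermal T cells. Tcrg-V5, a gamma chain gene, was in 41.3% of them. Itgae, Jaml and Ctla2a were in 68.8, 81.2 and 100% of the Gzmc members and in 97.6, 60.5 and 99.9% of those T cells. Cd3e was in 1 of 16 Gzmc members and 98.9% of the T cells, Tcrg-C1 in 0 and 96.7%, and Trdc in 37.5 and 98.8%. Tyrobp went the other way, in 87.5% of Gzmc members (61.7 to 98.4) and 22.5% of the T cells. Car2 was in 43.8 and 0.566%, Ifng in 50 and 2.49%, Il7r in 81.2 and 17.8% and Rora in 68.8 and 19.5%. The rule itself removes cells with Cd3d, Cd3g or Trdv4, so the low T cell genes follow in part from the choice of members. Tyrobp, Car2, Ifng, Il7r and Rora were no part of that choice.

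The 23 members with neither granzyme were not blank. Ncr1 was in 65.2%, Klrb1c in 78.3% and Car2 in 82.6% of them, and Ikzf2 and Tox, a factor of innate lymphoid development, were each in 82.6%. Ifng was in 52.2%, close to its 61.5% in Gzma and 50% in Gzmc cells. The isotype control members with 26 and 3 Ctla4 UMIs were among these 23 and held 13 and 11 Ikzf2 UMIs. When the members were clustered on genes outside the rule, 5 clusters of 9 to 14 cells formed, led by Ccl5 and Serpinb6b, by Ccl4, Ccl3 and Ifng, by Rgcc and Elovl5, by Fabp4 and Ifitm2, and by Rora and Ikzf2. The first 2 held 10 of the 13 Gzma cells, and the fourth held 11 of the 16 Gzmc cells, with Gzma, Gzmc and Eomes left out of the clustering. Fabp4, first in the fourth cluster, came from the deepest cell alone, and no cluster was given a cell type name.

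The share of members was alike in the libraries within counting error. They made up 0.184% (0.129 to 0.255) of the isotype control barcodes and, in the anti-Gr-1 library, 0.199% (0.114 to 0.323), a ratio of 1.08 (0.559 to 2). Over members and cells with a Cd3d or Cd3g UMI only, the shares were 0.284 and 0.313%, with a ratio of 1.10 (0.571 to 2.04). A difference inside these intervals was not detectable with 52 cells. A sort on CD45 sets the denominator, and a share cannot tell fewer of these cells from more of others. Ly6c2, a gene of the antibody's target family, was found in 3 of 36 and 2 of 16 members.

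Of 2453 genes with at least 20 UMIs in the members, 90 were at least 2-fold higher in the anti-Gr-1 members (3.67%) and 206 at least 2-fold lower (8.4%). The median log2 ratio was -0.14. These shares are the background for the gene groups below, whose values are ratios of CPM with 5 CPM added. No ratio carries a test.

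**Figure D4:**
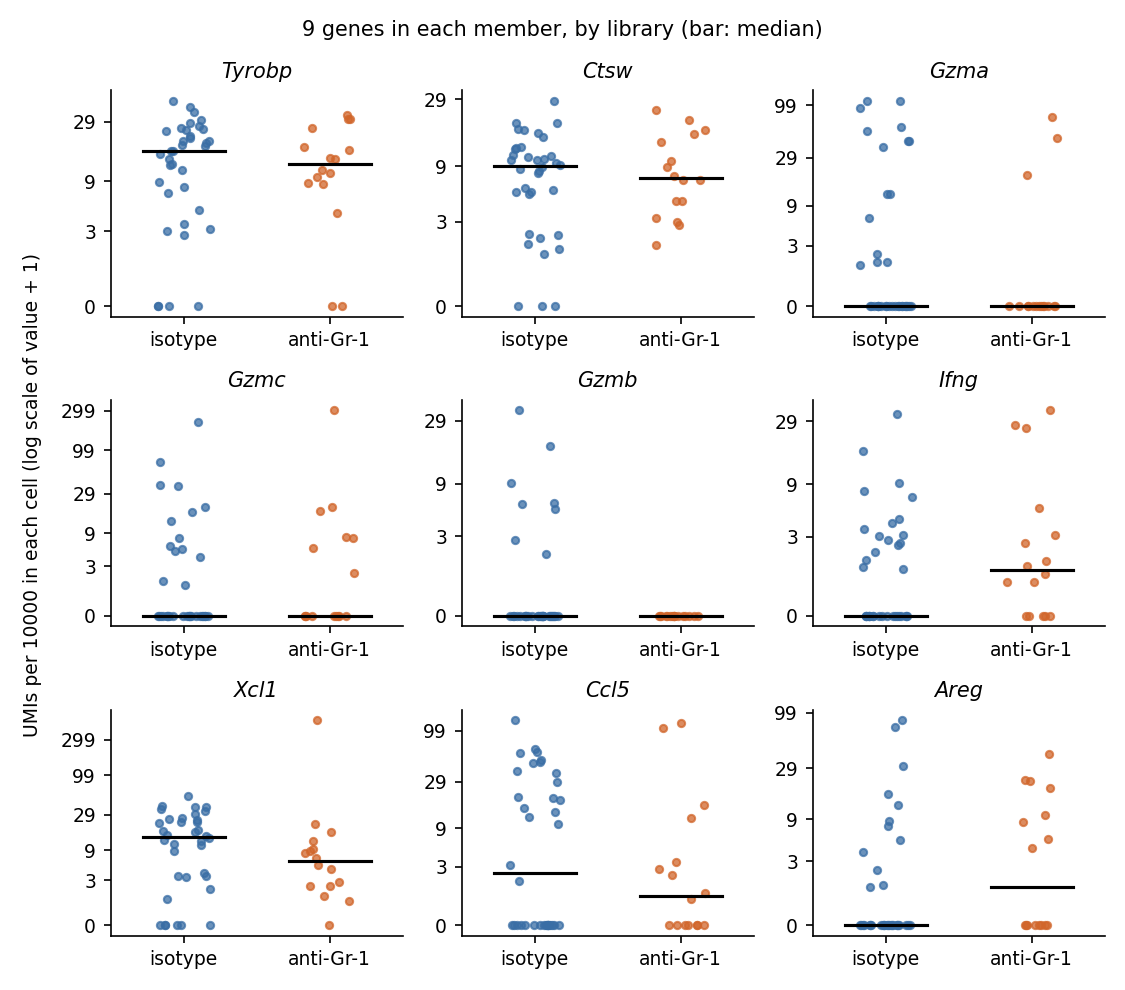
UMIs per 10000 of the cell's own UMIs (y axis, log scale of value + 1) for 9 genes in each member of the isotype control (36 cells) and anti-Gr-1 (16 cells) libraries, with the median as a bar. Tyrobp and Ctsw overlap between the libraries, Gzmb was found in 8 isotype control cells and no anti-Gr-1 cell, and 1 anti-Gr-1 cell holds most of the Xcl1 and Gzmc.

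The 2 granzymes of the rule differed in level between the libraries and are given as a description. Gzma was at 1457 CPM in isotype control and 425 CPM in anti-Gr-1 members (ratio 0.292, 0.220 to 0.383), with 10 and 3 Gzma cells among them. Gzmc was at 1408 and 2671 CPM, with 88.1% of its anti-Gr-1 UMIs in 1 cell. Of the 9 other granule genes measured, 0 were at least 2-fold higher and 1 was lower, with a median of -0.20 that was above 0 in female cells (0.14) and in male cells (0.39) taken alone. Serpinb6b was at 701 and 349 CPM (0.498, 0.356 to 0.688). Nkg7, a granule membrane protein, stood at 1076 and 958 CPM and Ctsw, cathepsin W, at 957 and 831 CPM, in isotype control and anti-Gr-1 members. Prf1 was at 212 CPM in 14 of 36 cells and 140 CPM in 4 of 16, a ratio of 0.658 (0.372 to 1.14). The gene that was lower was Gzmb, the main granzyme of activated killer cells. It had 40 UMIs in 8 of 36 isotype control members (217 CPM), 22 of them in 1 cell, and 0 UMIs in 16 anti-Gr-1 members. The isotype control level was 11.4-fold that of 3 counts in the anti-Gr-1 members (19.04 CPM), and 5.32-fold without that cell. These folds leave out counting error. The exact interval of the isotype control level was 155 to 296 CPM, and that of 0 UMIs reached 23.4 CPM. Gzmb was found in 22.2% of isotype control members (10.1 to 39.2) and in 0 of 16 anti-Gr-1 members, for which the exact interval reaches 20.6%. These intervals overlapped, and a difference in the share of cells was not tested.

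The death ligand Fasl had the same direction as Gzmb. Its 23 UMIs lay in 13 of 36 isotype control members (125 CPM) and its 3 UMIs in 3 of 16 anti-Gr-1 members (19.04 CPM), a ratio of 0.152 (0.0293 to 0.504). Tnfsf10, the gene of TRAIL, was at 114 and 95.2 CPM. Its ratio of 0.834 had an interval of 0.400 to 1.70, so no difference beyond counting error was seen for TRAIL.

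Most receptors differed by less than 2-fold. Of 16 measured NK receptor and adaptor genes, 0 were at least 2-fold higher and 3 lower, with a median of -0.46. The median had the other sign when each cell weighed the same (0.12) and in cells thinned to 2000 UMIs (0.13). Tyrobp was at 1767 and 1326 CPM, and Fcer1g, the Fc receptor gamma chain, at 1489 and 1498 CPM. Klrk1 was in 29 of 36 and 16 of 16 members, at 777 and 666 CPM. The 3 that were lower were Klre1, at 190 and 57.1 CPM (ratio 0.300, 0.127 to 0.637), Klrc1, at 239 and 88.8 CPM (0.371, 0.188 to 0.691), and Cd226, the DNAM-1 receptor, at 190 and 88.8 CPM (0.467, 0.232 to 0.890). Klre1 and Klrc1 were found in 36.1 and 50% of isotype control members and 37.5 and 31.2% of anti-Gr-1 members. For Klre1 the share of cells therefore did not follow the CPM. The share of Gzma cells, in which Klre1 was frequent, was 10 of 36 and 3 of 16, and its part in these values was not tested.

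Of 13 NK cell genes, 1 was at least 2-fold higher and 3 lower, with a median of -0.47. Klf2, a factor of lymphocyte recirculation, was the higher one, at 147 CPM in 11 of 36 cells and 393 CPM in 10 of 16 (ratio 2.68, 1.68 to 4.38). Emb, a transporter partner, was at 940 and 387 CPM, and Irf8 at 179 and 69.8 CPM. The third lower gene was Cma1, a mast cell protease gene, of which 35 of 41 isotype control UMIs lay in 1 cell. Of 16 ILC1 genes, 1, Xcl1, was higher and 0 were lower, with a median of -0.12.

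Several transcription factors of type 1 lymphocytes were lower in the anti-Gr-1 members. Of 19 measured, 1, Klf2, was at least 2-fold higher and 4 were lower, with a median of -0.40. Nfil3, a factor that innate lymphoid progenitors need, had 28 UMIs in 17 of 36 isotype control members and 1 UMI in 16 anti-Gr-1 members, a ratio of 0.0417 (0.00102 to 0.252). Tbx21, the T-bet gene, was at 97.8 CPM in 10 of 36 cells and 44.4 CPM in 6 of 16. The interval of its ratio, 0.160 to 1.14, holds 1, and the share of cells with Tbx21 did not follow the CPM. Stat4, which carries the IL-12 signal to Ifng, was at 375 and 159 CPM (ratio 0.423, 0.256 to 0.677). Irf8 was the fourth and is given above. Id2, the factor common to innate lymphoid cells, was at 582 and 628 CPM, and Rora at 457 and 463 CPM.

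The cytokine list had its median on the other side, at 0.58 over 12 genes, with 4 at least 2-fold higher and 0 lower. In female cells alone it was -0.87 and in male cells 2.01. Single cells carried much of it. Xcl1, the ligand of the dendritic cell receptor XCR1, was at 1777 CPM in 30 of 36 and 4854 CPM in 15 of 16 members, but 87.6% of the anti-Gr-1 UMIs lay in 1 cell with 670 of them, and without that cell the log2 ratio went from 1.45 to -1.44. That cell also held 371 of the 421 Gzmc UMIs of the anti-Gr-1 members. The same cell held all 35 Ccl1 UMIs of the anti-Gr-1 library, and 28 of its 40 Il2 UMIs lay in the deepest cell. The log2 ratio of Il2 was 2.59, and 1.28 without that cell. Areg, the fourth, was at 527 CPM in 12 of 36 and 1110 CPM in 8 of 16 members (ratio 2.11, 1.63 to 2.73). Its log2 ratio was 1.07, and 0.74 without the deepest anti-Gr-1 cell, which held 68 of 175 UMIs. The cell with 670 Xcl1 UMIs held a further 49 of Areg, and the ratio without both cells was not calculated.

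Ifng itself was found in a larger share of anti-Gr-1 members, but with wide limits, and the share was not larger at equal depth. The median depth was 5601 UMIs in isotype control and 8106 UMIs in anti-Gr-1 members. Ifng stood at 283 CPM in 17 of 36 isotype control members and 482 CPM in 11 of 16 anti-Gr-1 members. The ratio was 1.71 (1.18 to 2.48) and the log2 ratio 0.76. That interval leaves out the spread between cells. In the cluster led by Ccl4, Ccl3 and Ifng, 1 cell held 36.9% of the Ifng UMIs. The shares of isotype control and anti-Gr-1 members with Ifng were 47.2% (30.4 to 64.5) and 68.8% (41.3 to 89.0), whose intervals overlapped. Its inducing receptors were on the other side: Il18r1 was at 370 and 216 CPM (0.584, 0.375 to 0.893) and Il18rap at 261 and 140 CPM (0.535, 0.308 to 0.904). Of 18 cytokine receptor and signalling genes, 1 was at least 2-fold higher and 2 lower, with a median of -0.35. The higher one was Il6st, the gp130 subunit, whose 23 anti-Gr-1 UMIs all lay in the deepest cell, and its log2 ratio went from 2.50 to -2.42 without that cell. Ccl5 was at 1527 and 971 CPM and Ccl4 at 815 and 1421 CPM, with 82.1% of the anti-Gr-1 Ccl4 UMIs in 1 cell.

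Other lists were counted in the same way. Of 20 chemokine receptor and adhesion genes, 1 was at least 2-fold lower and 0 were higher. Of 12 NF-kB target and brake genes, 1 was lower, and of 14 glycolysis and growth genes, 0 passed in either direction. Of 12 survival genes, 1 was higher and 3 lower, among them Pim2, a survival kinase induced by IL-15, which was in 16 of 36 isotype control members and 1 of 16 anti-Gr-1 members (ratio 0.117, 0.0228 to 0.375). Interferon-induced genes were thinly measured, with 7 of 47 listed genes at 20 UMIs and a median of -0.01. Genes that tissue digestion can induce, 22 measured, had a median of 0.11 with 2 higher and 0 lower, and a median of -0.90 in female cells alone.

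The largest differences at 50 or more UMIs rested partly on the deepest anti-Gr-1 cell. Fabp4, a fatty acid binding protein of capillary endothelium, had 237 of its 238 UMIs there, and the same cell held all 28 Plvap and all 23 anti-Gr-1 Pecam1 UMIs. It also held 49 of the 50 Il1b, 72 of the 79 Tnfsf9 and 44 of the 48 Atf3 UMIs of the anti-Gr-1 members. Without it Il1b, Tnfsf9 and Atf3 went from log2 ratios of 2.73, 2.55 and 1.44 to -1.87, -0.46 and -1.58, and Cst3 from 1.69 to -0.04. Ifitm2, a membrane antiviral gene, and Klf2 stayed past 2-fold, at 2.14 and 1.32. Of the 10 lowest genes, the 8 described here stayed at least 2-fold lower without it, from -1.01 for Klrc1 to -1.85 for Rtf1 and Zc3hav1. Skil, Ankrd17, Gimap4, Vps37b and Car2 were the others of these 8. Vps37b, an endosomal sorting gene, had the most counts of them, at 2223 CPM in 31 of 36 and 825 CPM in 15 of 16 members.

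**Figure D5:**
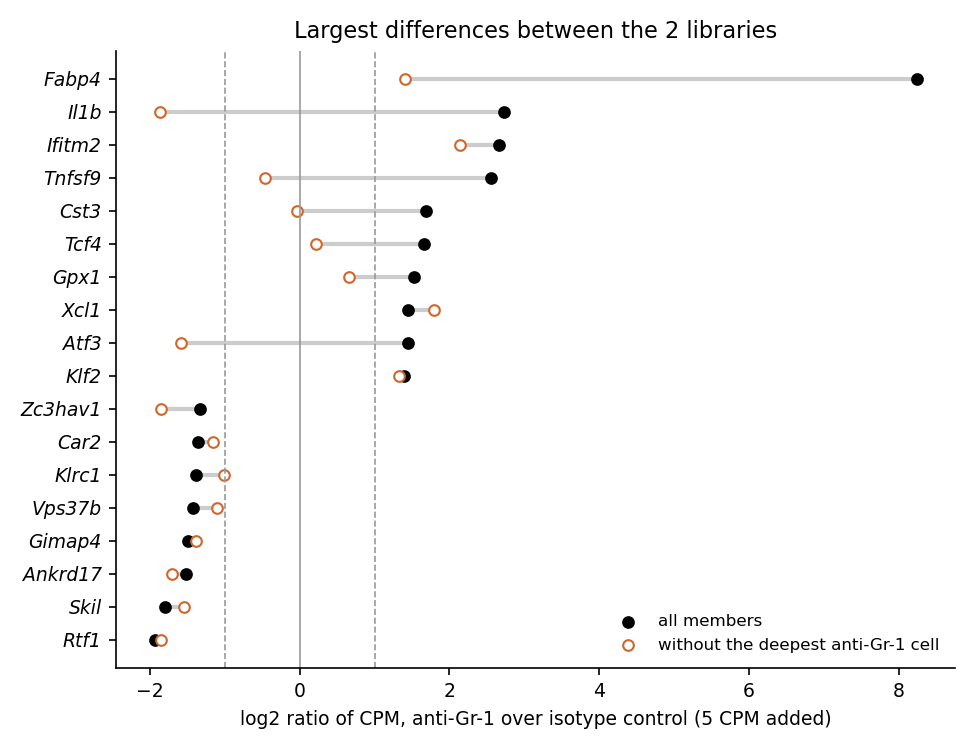
Log2 ratio of CPM, anti-Gr-1 over isotype control with 5 CPM added (x axis), for the 10 highest and 8 of the 10 lowest genes by the rule for named genes, with all members (filled) and without the deepest anti-Gr-1 cell (open). Fabp4 was not found in the isotype control members, so its position depends on the 5 CPM added; 4 genes on the right move to 0 or below without that cell and the 8 on the left stay at or below -1.

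RNA of other cell types was present at low levels. Of 9 mast cell and basophil genes, 4 were at 0 in the isotype control members and 5 in the anti-Gr-1 members. Their summed level ran from 0 to 178 UMIs per 10000 in isotype control cells and from 0 to 1.85 in anti-Gr-1 cells, with 1 isotype control cell holding 17 Cpa3 and 30 Mcpt4 UMIs. Of 15 monocyte, macrophage and neutrophil genes, 7 and 10 were at 0, and the highest cells held 12.5 and 4.34 UMIs per 10000. Of 10 ILC3 genes 0 reached 20 UMIs, and of 14 ILC2 genes 5 did, led by Areg. Il1rl1, the IL-33 receptor that marks ILC2, had 1 UMI in the isotype control members and 10 in the anti-Gr-1 members, 9 of them in 1 cell. Of 8 B cell genes, 7 and 6 were at 0, and of 11 keratinocyte, fibroblast and endothelial genes, 7 and 7. The part of these RNAs in the differences between the libraries was not tested beyond leaving out the cells named.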

How the data were processed

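Droplet single-cell RNA libraries made with the 10x 3′ v2 chemistry, per the labels, were measured from 2 pools of sorted CD45+ skin cells. The deposited matrices hold whole-number counts of UMIs per gene and barcode, and per the file headers the authors' pipeline was Cell Ranger (version 4.0.0); the submitters' processing notes name mm10. Antibody-derived tags were not used here, and the values of some genes of the lists are not reported here.

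Barcodes with at least 200 genes and under 10% mitochondrial UMIs were kept, which left 19542 and 8047 with medians of 4884 and 8139 UMIs. The member rule was applied to raw counts, and members' UMIs were summed per library. Doublets were kept, and scrublet scores served as an alternative. With 1 library per group no test was run. Shares carry exact binomial (Clopper-Pearson), levels exact Poisson and ratios exact conditional intervals at 95%. Ratios use CPM + 5 for genes with at least 20 UMIs over both libraries, and called means 2-fold. Clusters used 500 variable genes, 10 components, 10 neighbours and a resolution of 1.

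The members and the gene lists were chosen with earlier results of these data known. Named genes were the genes of the rule, the given markers, up to 6 most abundant and 4 most different genes per list, the 10 highest and 10 lowest ratios between libraries, the 20 highest over other T cells at 50 UMIs and 50 CPM, and 5 leading genes per cluster. Genes named for the granzyme cells were chosen after their values were seen, as was the limit of 3 UMIs. Alternatives changed the pseudocount, filters, scaling, depth, doublets, rule, sex and single cells. The calculations were tested on simulated data. Software was Python 3.11.15, numpy 2.4.6, scipy 1.17.1, pandas 2.3.3, scanpy 1.11.5, scikit-learn 1.9.0, igraph 0.11.9 and matplotlib 3.10.9.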

Additional observations from a re-analysis of the deposited data

How the results depend on the processing

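No paired analysis was possible because each treatment is 1 library of pooled mice. With 52 cells, depth limits genes under 20 UMIs, and the part of single mice cannot be told apart from treatment. Across alternatives for the counts, list medians and the ratio of shares, 237 values kept their size and 31 moved. Of the values for single genes, 1591 kept theirs, 186 moved and 13 reversed. The cause of these moves was not tested.

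The ratio of shares was 4.86 (0.253 to 287) when 6 further T cell receptor and CD3 genes had to be absent, which left 1 and 2 cells, and 0.752 to 1.35 under the others. The count of higher genes was 55 with 20 CPM added, 22 at 50 UMIs, 2210 at 1 UMI, 21 in thinned cells, 34 under the stricter T cell rule and 36 in female cells. The count of lower genes was 40 at 50 UMIs, 2286 at 1 UMI, 62 in thinned cells, 11 under the stricter T cell rule, 93 in female and 106 in male cells.

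The median of granule genes was -0.80 with an NK gene required, 0.14 in female cells, 0.39 in male cells and -0.56 without the Xcl1-rich cell. That of NK receptors was 0.12 by mean CPM per cell and 0.13 in thinned cells. Cytokines gave -0.87 in female and 2.01 in male cells, and homing genes -0.98 in female cells. Digestion genes gave -1.17 under the stricter T cell rule, -0.90 in female and 0.61 in male cells. In male cells NF-kB genes gave -1.06 and survival genes -1.22. ILC2 genes gave -0.54 by mean CPM, 0.81 with an NK gene required and 0.83 in male cells. At 1 UMI of each granzyme, 3 cells held both.

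Tnfsf9 reversed to -0.37 without high scrublet scores and -0.46 without the deepest anti-Gr-1 cell, Cst3 to -0.12 and -0.04, and Bst2 to -0.62 and -0.37. Atf3 reversed to -0.13 by mean CPM, -1.85 without high scrublet scores and -1.58 without the deepest cell. Xcl1 reversed to -1.32 with an NK gene required, -1.35 in female cells and -1.44 without the Xcl1-rich cell. Il6st reversed to -0.79 by mean CPM. Leaving out single cells, keeping Trdv4 or 1 CD3 UMI, and other granzyme limits were chosen after seeing the data.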
